A study of Mus musculus with 6 samples.

Results

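Hmgcs1, Fdft1, Sqle, Dhcr7, Insig1 and Srebf2 were described as 6 genes of cholesterol synthesis and its control, in the hippocampus of mice that carry an Rbfox1 transgene and of control mice. They were taken by name from the deposited isoform table, in which they are 6 of 53354 gene symbols and 28 of 133944 isoforms. All mice were 3 months old, of the C57BL/6 background, and carried N-cre, a Cre transgene under the nestin promoter, which is active in the precursors of neurons and glia. The 3 N-cre mice had no Rbfox1 transgene and served as controls. The 3 N-cre;Fox1 mice carried in addition 1 R26-Rbfox1 flox allele, an Rbfox1 cDNA in the Rosa26 locus under the CAG promoter, which is silent until Cre removes a stop cassette. The allele was made in stem cells of another strain and then backcrossed, and the study's reporter showed Cre activity in granule cells of the dentate gyrus and pyramidal neurons of CA1 and CA3. RNA of the hippocampus was sequenced with 1 library per mouse and no pooling. The question asked here is whether the level or the isoform use of these genes differed between the genotypes.

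Animal cells make cholesterol from acetyl-CoA through the mevalonate pathway. Most of the genes are switched on together by SREBP2, a transcription factor that is held in the endoplasmic reticulum by SCAP and the INSIG proteins while sterols are plentiful, and is cut free and moves to the nucleus when sterols fall. The blood-brain barrier keeps out lipoproteins, so the brain makes its own cholesterol. Oligodendrocytes use it for myelin, and astrocytes pass it to neurons on particles with apolipoprotein E.

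Because the 6 genes are known targets of one factor, the sequences before their start sites are shown for 3 of them. RefSeq windows on GRCm38.p6, from 250 bases before to 50 bases after a start site, matched 4 of the 6 genes, and the bases printed are those before the start site that lie in no annotated exon, 5′ to 3′ on the plus strand of the gene. Capitals mark TCACCCCA, a form of the sterol regulatory element that SREBP proteins bind, CACGTG, the palindromic E-box of helix-loop-helix factors, and CCAAT, the box bound by NF-Y, a partner of SREBP, which reads ATTGG where it lies on the other strand. The 3 regions are chr13:119690101-119690350 for Hmgcs1, chr15:82147019-82147180 for Srebf2 and chr5:28071162-28071362 for Insig1.
Hmgcs1: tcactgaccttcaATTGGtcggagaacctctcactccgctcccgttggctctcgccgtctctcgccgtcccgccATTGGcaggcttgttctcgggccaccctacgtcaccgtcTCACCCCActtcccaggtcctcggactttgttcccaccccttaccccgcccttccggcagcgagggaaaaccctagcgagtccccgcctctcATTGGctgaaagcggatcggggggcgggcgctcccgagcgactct
Srebf2: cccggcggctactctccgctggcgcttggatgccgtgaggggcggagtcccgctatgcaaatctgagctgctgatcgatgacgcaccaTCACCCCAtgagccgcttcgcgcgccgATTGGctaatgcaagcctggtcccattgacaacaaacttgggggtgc
Insig1: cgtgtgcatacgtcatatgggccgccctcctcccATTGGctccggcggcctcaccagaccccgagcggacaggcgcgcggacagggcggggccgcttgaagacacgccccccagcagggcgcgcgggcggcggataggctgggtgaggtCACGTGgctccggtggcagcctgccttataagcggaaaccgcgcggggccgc

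TCACCCCA stood 137 bases before the start site of Hmgcs1 and 162 bases before that of Srebf2, and was found in 1.56% of all 32851 windows on either strand. CACGTG stood 101 bases before the start site of Insig1 and was found in 7.15% of windows. A CCAAT box lay on the other strand in all 3 printed sequences, at 237, 176 and 45 bases before the start in Hmgcs1, 135 in Srebf2 and 216 in Insig1, and was found in 37.4% of windows. The motifs did not overlap one another in these sequences. The 3 windows of Dhcr7 held CACGTG and 2 CCAAT boxes in bases that belong to annotated exons. The remaining stretch of Dhcr7 outside annotated exons, 228 bases at chr7:143822917-143823144, held none of these motifs and is not printed. The 3 genes shown are thus those with a match. These are matches of letters and not measured binding sites.

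The 6 genes were measured well above the detection limit in every mouse, from 1354 expected counts for Dhcr7 to 14345 for Hmgcs1. Scaled to gene length, as transcripts per 1000000 transcripts (TPM) computed from the expected counts and annotated isoform lengths, the mean over the 6 mice was 161 TPM for Hmgcs1, 91.7 for Srebf2, 58.8 for Fdft1, 48.4 for Insig1, 45.7 for Sqle and 37.9 for Dhcr7. Hmgcs1 and Srebf2 stood apart from their neighbours in this order in every mouse, and so did Dhcr7. Fdft1 with 54.8 to 61.6 TPM and Insig1 with 43.4 to 55.9 TPM overlapped between mice, as did Insig1 and Sqle, which had 41.8 to 50.7 TPM. All further levels are counts per 1000000 counts (CPM) after TMM normalization, summed over a gene's isoforms, and are compared only for the same gene between mice.

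Some facts of the libraries touch every result. The expected counts summed to 40463587 to 62141336 in controls and to 54352011 to 59362399 in transgenic mice. The targeted gene, Rbfox1, was at 273 to 288 CPM in controls and 256 to 300 CPM in N-cre;Fox1 mice, so its summed level did not separate the libraries, and the genotypes are named as the labels give them. Xist, the RNA that silences an X chromosome, was at 443 and 415 CPM in replicate 1 of either genotype and at 0.326 to 0.419 CPM in the other 4 mice. Ttr, an abundant RNA of choroid plexus, was at 2090 CPM in N-cre replicate 3, 4750 in N-cre;Fox1 replicate 2 and 5.16 to 12.7 in the others. Defining markers of neurons, astrocytes and oligodendrocytes, the cells of hippocampus, were present in all libraries. In bulk tissue, fewer cells of a type and less RNA per cell cannot be told apart.

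All 6 genes had a higher mean in N-cre;Fox1 mice, and the differences were small. Insig1, the brake on SREBP2 release and itself an SREBP2 target, was 17.6% higher, and Srebf2, which encodes SREBP2, was 6.17% higher. In these 2 genes the genotypes did not overlap. In the 4 enzymes Hmgcs1, Fdft1, Sqle and Dhcr7 they overlapped. With edgeR's quasi-likelihood test and Benjamini-Hochberg adjustment over 18924 genes, 0 of the 6 had an adjusted p under 0.05, against 0.0264% of all genes tested. DESeq2 and limma-voom also called 0 of the 6, in fits that called 50 and 5 of 18924 genes. An unadjusted p under 0.05 with a higher level in N-cre;Fox1 was found for 2 of the 6, against 3.59% of all genes, and 2 of the 6 were higher with no overlap, against 6.06% of all genes. The count of 2 by unadjusted p was 4 without N-cre;Fox1 replicate 1, a fit in which 5.55% of all genes were so called. It was 5 in the 4 mice with low Xist (5.42% of all genes) and 2 in the 4 mice with low Ttr (2.9%). It was 1 without N-cre replicate 2 (2.32%), without N-cre replicate 3 (2.82%) or without N-cre;Fox1 replicate 3 (2.48%). Over all 17 alternatives this count ran from 1 to 5. Over the 6 genes the median of the log2 fold changes was 0.10, and that of all genes tested was 0.

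**Figure D1:**
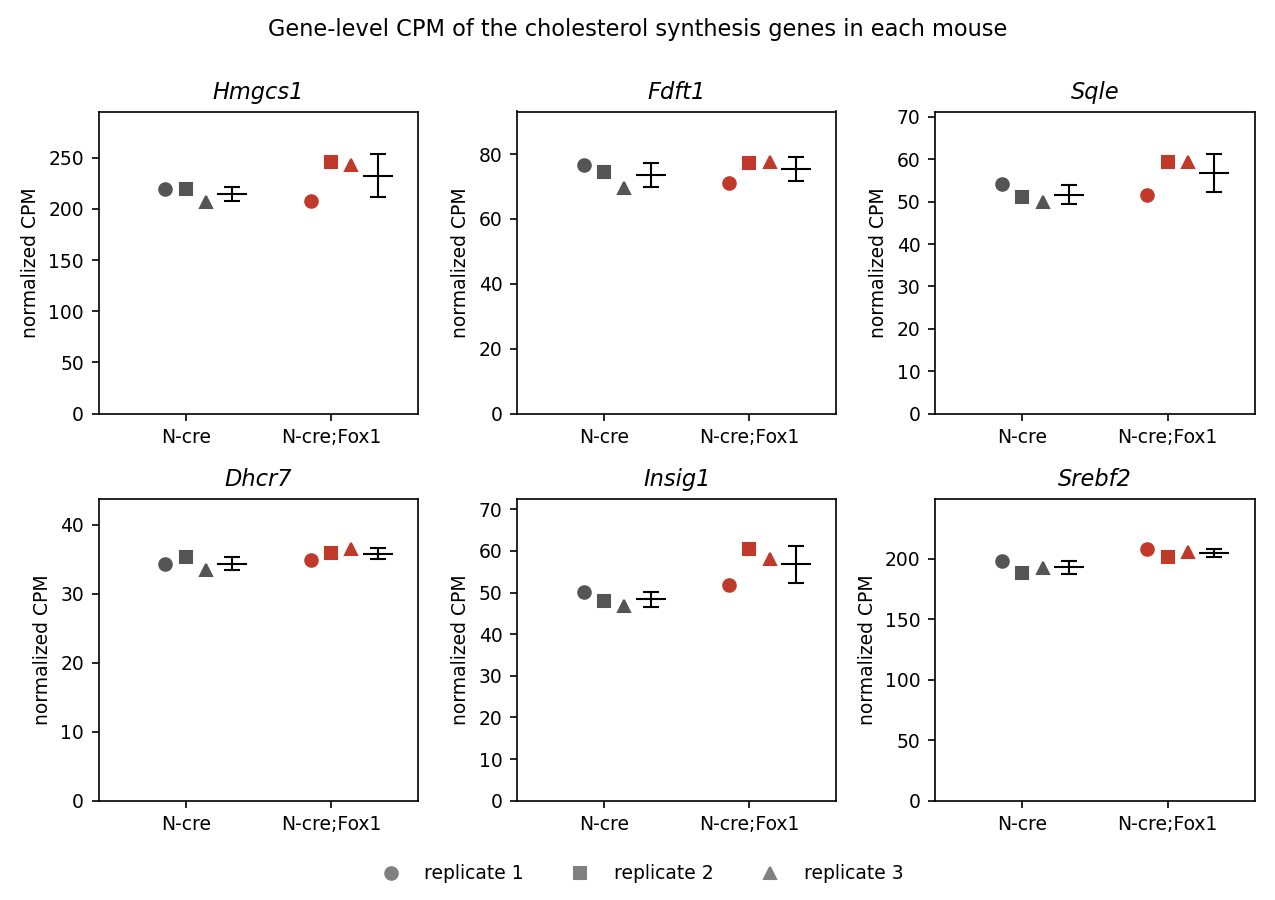
Normalized CPM of each of the 6 genes (y axes, from 0) in 3 mice of each genotype, with a marker shape for each replicate number and a horizontal bar with whiskers for the mean ± SD of each genotype. Replicates 2 and 3 of N-cre;Fox1 lie above all N-cre mice for every gene, and replicate 1 does so for Insig1, at 51.9, and Srebf2, at 208.

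Hmgcs1 encodes HMG-CoA synthase, an early enzyme of the mevalonate pathway. It lies on chromosome 13 from 119690379 to 119708260 on the plus strand of mm10. It was at 219, 219 and 207 CPM in N-cre replicates 1, 2 and 3 and at 208, 246 and 243 CPM in N-cre;Fox1 replicates 1, 2 and 3. Replicates 2 and 3 of N-cre;Fox1 were above all controls, while replicate 1 lay among them. The means were 215 ± 7.28 (SD, n = 3) and 232 ± 21.2 CPM (SD, n = 3). The log2 fold change was 0.11 (SE 0.064), with an unadjusted p of 0.127 and an adjusted p of 0.857 by edgeR's quasi-likelihood test. It was 0.19 without N-cre;Fox1 replicate 1 (adjusted p 0.121 by edgeR) and 0.07 without N-cre;Fox1 replicate 2 (adjusted p 0.899). Its exons share 557 bases with Gm48342, an antisense gene for which the table gives no counts.

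Fdft1 encodes squalene synthase, the first enzyme committed to sterols. It lies on chromosome 14 from 63145150 to 63179578 on the minus strand. It was at 76.6, 74.4 and 69.4 CPM in the controls and 71.1, 77.3 and 77.6 CPM in N-cre;Fox1 replicates 1, 2 and 3. N-cre replicate 3 was the lowest mouse and N-cre;Fox1 replicate 1 the next. The means of 73.5 ± 3.71 and 75.3 ± 3.65 CPM (SD, n = 3 each) differed by less than the spread between mice, with a log2 fold change of 0.04 (SE 0.0469, 95% interval -0.07 to 0.14) and an adjusted p of 0.963 by edgeR. The value of Fdft1 is uncertain, since 774 bases of its exons overlap those of Ctsb on the other strand, an abundant gene, and 1249 bases are 97.4% identical to the gene Gm6781, which had 169 expected counts in all 6 libraries together. With 1 mouse left out its log2 fold change ran from 0, without N-cre replicate 3, to 0.08, without N-cre;Fox1 replicate 1, and without the 2 mice with high Ttr it was -0.02.

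Sqle encodes squalene epoxidase, which adds the oxygen that later becomes the hydroxyl group of cholesterol. It lies on chromosome 15 from 59315077 to 59331192 on the plus strand. It was at 54.2, 51 and 49.9 CPM in the controls and 51.5, 59.3 and 59.4 CPM in N-cre;Fox1 replicates 1, 2 and 3. As for Hmgcs1, replicate 1 of N-cre;Fox1 lay among the controls and the other N-cre;Fox1 mice lay above them. The means were 51.7 ± 2.22 and 56.7 ± 4.55 CPM (SD, n = 3 each), a log2 fold change of 0.13 (SE 0.0592), with an unadjusted p of 0.0508 and an adjusted p of 0.799 by edgeR. Without N-cre;Fox1 replicate 1 it was 0.20 (adjusted p 0.16 by edgeR).

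Dhcr7 encodes the reductase that turns 7-dehydrocholesterol into cholesterol. It lies on chromosome 7 from 143823145 to 143848410 on the plus strand. It was at 34.3, 35.3 and 33.4 CPM in the controls and 34.9, 35.9 and 36.5 CPM in N-cre;Fox1 replicates 1, 2 and 3. The genotypes overlapped at N-cre replicate 2 and N-cre;Fox1 replicate 1. The means of 34.3 ± 0.944 and 35.8 ± 0.806 CPM (SD, n = 3 each) gave a log2 fold change of 0.06 (SE 0.0431, 95% interval -0.04 to 0.15) and an adjusted p of 0.908 by edgeR.

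Insig1 lies on chromosome 5 from 28071363 to 28078662 on the plus strand. It was at 50.2, 48 and 46.8 CPM in the controls and 51.9, 60.5 and 58 CPM in N-cre;Fox1 replicates 1, 2 and 3. All N-cre;Fox1 mice were above all N-cre mice, and the closest pair was replicate 1 of either genotype, the mice with high Xist. The means were 48.3 ± 1.72 and 56.8 ± 4.42 CPM (SD, n = 3 each). The log2 fold change was 0.23 (SE 0.0559, 95% interval 0.11 to 0.36), with an unadjusted p of 0.00205 and an adjusted p of 0.595 by edgeR. With N-cre;Fox1 replicate 1 left out, the log2 fold change was 0.30 and the adjusted p 0.0409, and in the 4 mice with low Xist it was 0.33 and 0.0302, while over all 17 alternatives the adjusted p in edgeR, DESeq2 and limma-voom ran from 0.0302 to 1. The same fits called 28 of 19452 genes (0.144%) and 65 of 18982 genes (0.342%), against 5 of 18924 in all mice, so that more genes passed across the whole table. The call for Insig1 depended on 1 library.

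Srebf2 lies on chromosome 15 from 82147181 to 82205379 on the plus strand, and its introns hold the microRNA gene Mir33. It was at 198, 188 and 192 CPM in the controls and 208, 201 and 205 CPM in N-cre;Fox1 replicates 1, 2 and 3. The genotypes did not overlap, and the highest mouse was N-cre;Fox1 replicate 1, which was low among its group for the other 5 genes. The means were 193 ± 4.96 and 205 ± 3.42 CPM (SD, n = 3 each), a log2 fold change of 0.09 (SE 0.0342, 95% interval 0.01 to 0.16), with an unadjusted p of 0.0293 and an adjusted p of 0.788 by edgeR.

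The levels of the 6 genes varied together from mouse to mouse. N-cre replicate 3 was the lowest mouse for 5 of the 6 genes. Replicates 2 and 3 of N-cre;Fox1 were the 2 highest mice for 5 of the 6. The mean log2 CPM of the 6 genes relative to the N-cre mean was 0.04, 0.00 and -0.05 in the N-cre replicates and 0.02, 0.15 and 0.15 in the N-cre;Fox1 replicates. In this mean, N-cre;Fox1 replicate 1 lay between N-cre replicates 1 and 2, and the other N-cre;Fox1 mice lay above all controls. Over the 15 pairs of genes the Pearson r across the 6 mice had a median of 0.79 and ran from 0.24 to 0.95, and all pairs share the same libraries and their scaling. In the pair of mice with high Xist, Hmgcs1, Fdft1 and Sqle were lower in the N-cre;Fox1 mouse than in the N-cre mouse, and Dhcr7, Insig1 and Srebf2 were higher. In the 4 mice with low Xist the log2 fold changes were 0.20 for Hmgcs1, 0.11 for Fdft1, 0.24 for Sqle, 0.08 for Dhcr7, 0.33 for Insig1 and 0.10 for Srebf2, and 5 of the 6 had an unadjusted p under 0.05, of which Insig1 alone had an adjusted p under 0.05, while over all genes in that fit 5.42% were higher with an unadjusted p under 0.05 and 0.342% had an adjusted p under 0.05. The libraries with high Ttr were N-cre replicate 3 and N-cre;Fox1 replicate 2. In the 4 mice with low Ttr the log2 fold changes were 0.04 for Hmgcs1, -0.02 for Fdft1, 0.08 for Sqle, 0.04 for Dhcr7, 0.17 for Insig1 and 0.10 for Srebf2, with adjusted p-values of 0.75 to 0.993 by edgeR. The part of Ttr, Xist or what they mark in these differences was not tested.

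Of 10725 other genes with a mean log2 CPM of at least 3, Idi1, Chordc1 and Med20 had the profiles across the 6 mice most like the mean of the 6 genes, with Pearson r of 0.995, 0.995 and 0.993. Idi1 encodes isopentenyl diphosphate isomerase of the mevalonate pathway, Chordc1 a protein that binds the chaperone HSP90, and Med20 a subunit of Mediator. A ranking of many genes over 6 libraries is a description, and it bears on likeness of level alone.

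**Figure D2:**
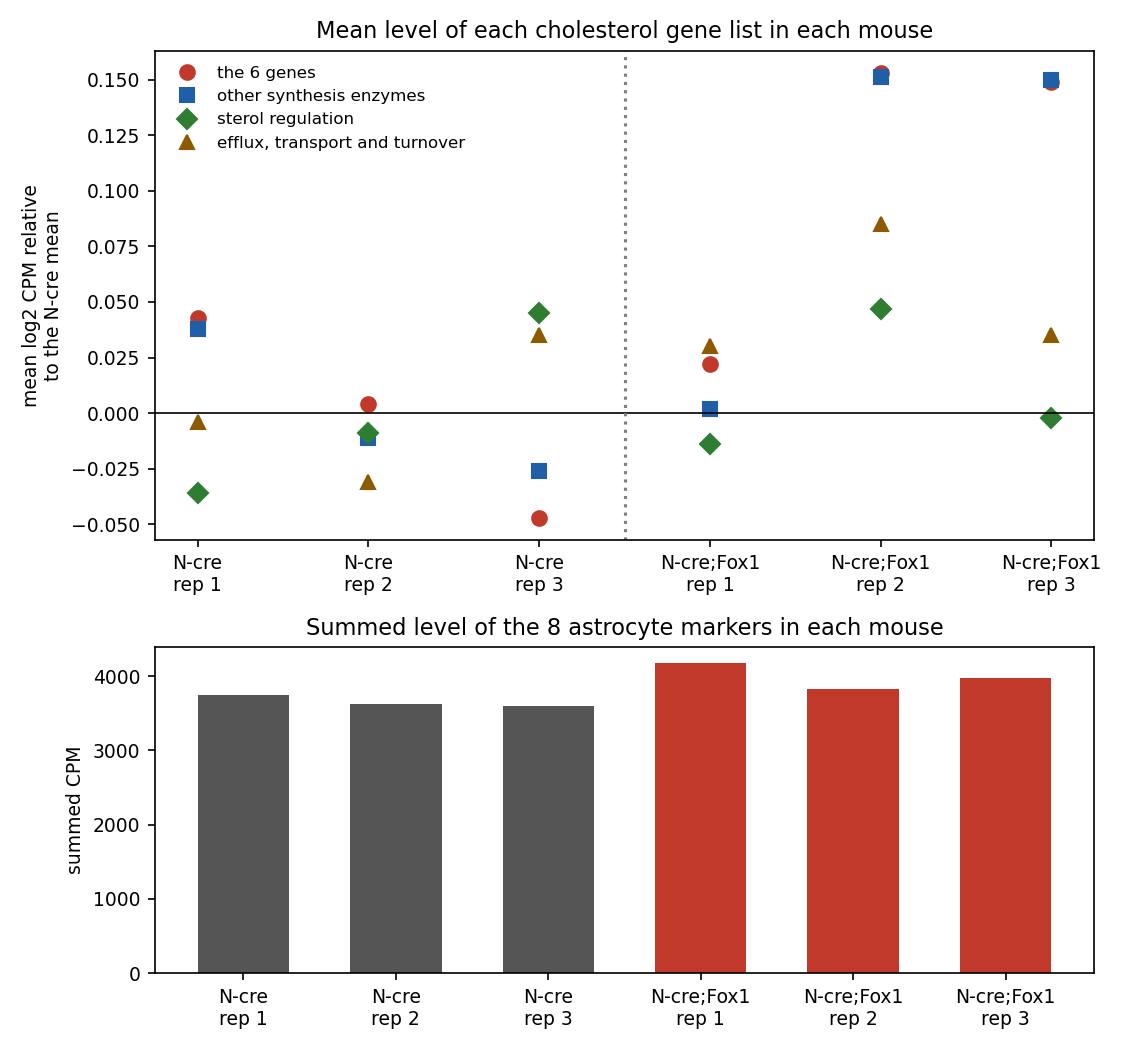
The upper panel shows for each mouse the mean log2 CPM of each gene list relative to the N-cre mean (y axis), with a symbol for each of the 4 lists, and the lower panel shows bars of the summed CPM of 8 astrocyte markers, from 0. The 6 genes and the other synthesis enzymes are near 0.15 in N-cre;Fox1 replicates 2 and 3. In N-cre;Fox1 replicate 1 they are at 0.022 and 0.002. The astrocyte sum is 4180 CPM in that mouse, its highest value, and the part of cell composition in the gene levels was not tested.

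Lists of further cholesterol genes were read in the same fit. Of 15 other enzymes of the pathway, all tested, 12 were higher in N-cre;Fox1 than in N-cre mice and 3 lower, with a median log2 fold change of 0.11 and a range of -0.07 to 0.26. By edgeR 0 of the 15 passed an adjusted p of 0.05, as by DESeq2 and limma-voom, beside the calls over all genes given above. By edgeR 6 were higher with an unadjusted p under 0.05, against the 3.59% of all genes given above. The count of 6 was 9 without N-cre;Fox1 replicate 1, a fit in which 5.55% of all genes were so called. It was 8 in the 4 mice with low Xist (5.42% of all genes) and 0 in the 4 mice with low Ttr (2.9%). It was 1 without N-cre replicate 3 (2.82%) and 2 without N-cre;Fox1 replicate 3 (2.48%). Idi1 had the highest value, 0.26 (SE 0.113, unadjusted p 0.0663 and adjusted p 0.808 by edgeR). It was at 52.8, 47.5 and 44.5 CPM in controls and 49.4, 62.4 and 61.4 CPM in N-cre;Fox1 mice, so that N-cre;Fox1 replicate 1 again lay among the controls.

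The 6 enzymes with an unadjusted p under 0.05 were Mvd, which decarboxylates mevalonate diphosphate, with a log2 fold change of 0.26, Cyp51, the lanosterol demethylase, with 0.23, Hsd17b7 with 0.19 and Msmo1 with 0.18, which act in the demethylation of sterols, Sc5d, the sterol desaturase, with 0.11, and Acat2, which makes acetoacetyl-CoA, with 0.10. The lowest values were those of Ebp, the sterol isomerase, with -0.07, and Tm7sf2, a sterol reductase, with -0.05. In all, 2 of the 15 enzymes, Hsd17b7 and Acat2, were higher with no overlap, against 6.06% of all genes tested. Of the 15, 1, Ebp, was lower with no overlap, against 6.11%. In the 4 mice with low Xist, Idi1, Cyp51 and Msmo1 had adjusted p-values under 0.05 by edgeR, in a fit that called 0.342% of all genes.

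**Figure D3:**
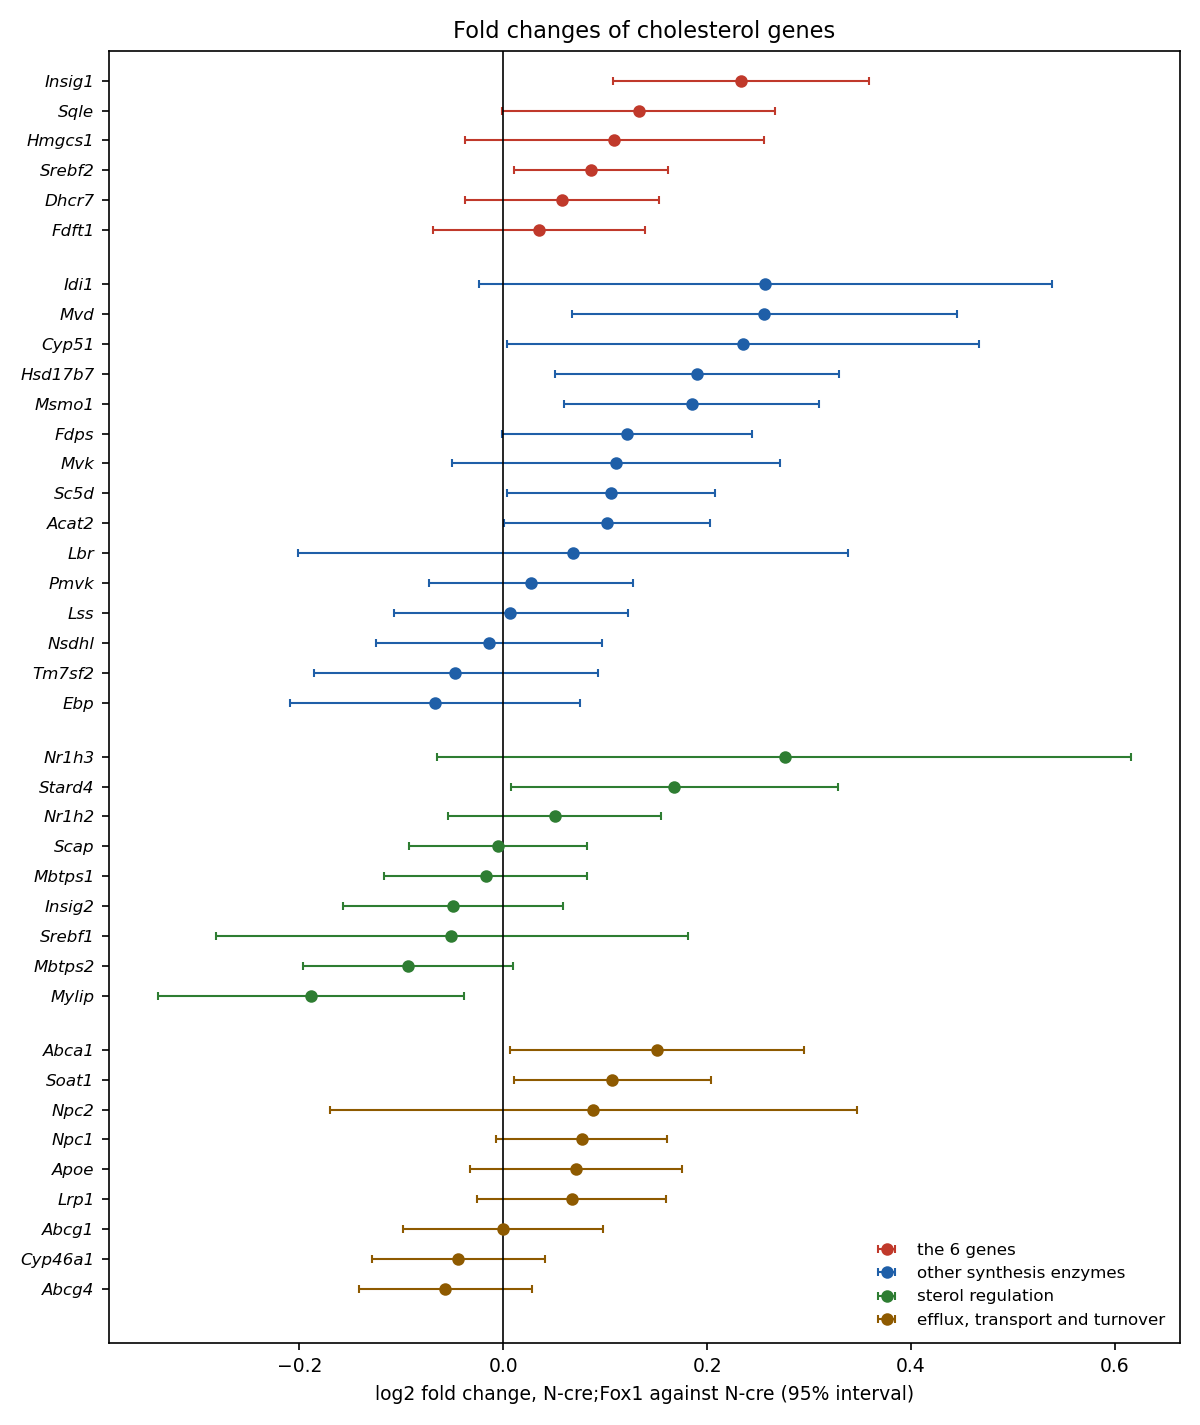
Log2 fold change of N-cre;Fox1 against N-cre (x axis) for the 6 genes and 3 lists of other cholesterol genes, 1 row a gene, with points for edgeR's estimates and whiskers for their 95% intervals. Intervals of Insig1 and Srebf2 lie above 0, as do those of 6 of the 15 other enzymes and those of Stard4, Abca1 and Soat1. That of Mylip lies below 0. Of all genes tested, 3.59% were higher and 2.6% lower with an unadjusted p under 0.05 by edgeR. The intervals are not adjusted for the number of genes.

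Of 9 genes of sterol sensing and its control, 3 were higher and 6 lower, with a median log2 fold change of -0.02, which ran from -0.04 to 0.02 over the alternatives and was above 0 without N-cre replicate 3 (0.019), without N-cre;Fox1 replicate 2 (0.014) and in the 4 mice with low Ttr (0.014). Nr1h3, which encodes the sterol-sensing nuclear receptor LXR alpha, had the highest value, 0.28 (SE 0.154, adjusted p 0.846 by edgeR), or 0.14 and below Stard4 without N-cre replicate 2, at 2.5 to 3.55 CPM in controls and 3.44 to 4.13 CPM in N-cre;Fox1 mice. Stard4, a carrier of sterols, had 0.17 with an unadjusted p of 0.0418 and an adjusted p of 0.799 by edgeR. The genotypes overlapped for both.

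Mylip, a ubiquitin ligase whose gene is driven by LXR, had the lowest value of this list, -0.19 (SE 0.0675, unadjusted p 0.0183 and adjusted p 0.77 by edgeR). It was at 17.9, 20.7 and 20.8 CPM in controls and 17.4, 17.2 and 17.4 CPM in N-cre;Fox1 mice, with no overlap. An unadjusted p under 0.05 with a lower level was found for 2.60% of all genes tested. Mbtps2, a protease that cuts SREBP, had -0.09 with an unadjusted p of 0.0731 by edgeR, also with no overlap. A lower level with no overlap was found for 6.11% of all genes tested. Scap and Insig2, which act beside Insig1, had -0.01 and -0.05, and the genotypes overlapped for both.

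Of 9 genes of efflux, transport and turnover, 6 were higher and 3 lower, with a median log2 fold change of 0.07, which was 0.11 without N-cre;Fox1 replicate 1 and 0.035 without N-cre;Fox1 replicate 2. Abca1, which exports cholesterol, had a log2 fold change of 0.15, and Soat1, which esterifies it, had 0.11. Each had an unadjusted p under 0.05 by edgeR, as did 3.59% of all genes with a higher level. Their adjusted p-values were 0.799 and 0.796 by edgeR. Abcg4 with -0.06 and Cyp46a1, which clears cholesterol from neurons, with -0.04 had the lowest values. Soat1 was higher with no overlap, against 6.06% of all genes, and Abcg4 was lower with no overlap, against 6.11%. Apoe was at 1120 to 1200 CPM in controls and 1150 to 1270 CPM in N-cre;Fox1 mice.

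Markers of other cell types were read beside these values, since astrocytes and oligodendrocytes make much of the brain's cholesterol. The 8 astrocyte markers summed to 3750, 3630 and 3600 CPM in controls and 4180, 3820 and 3970 CPM in N-cre;Fox1 mice, with no overlap. Of the 8, 4 were higher with an unadjusted p under 0.05 by edgeR (against 3.59% of all genes) and with no overlap (against 6.06%). These were Gfap, Aqp4, Slc1a2 and Gja1, with log2 fold changes of 0.38, 0.21, 0.12 and 0.10. Their adjusted p-values by edgeR were 0.319 to 0.769. The other 4 were between -0.14 and -0.02. Slc1a2 alone was at 1990 to 2280 CPM and made up much of the sum. The astrocyte sum was highest in N-cre;Fox1 replicate 1, in which the mean of the 6 genes was lowest of its group. The 9 oligodendrocyte markers summed to 4560 to 5150 CPM in controls and 4420 to 5400 CPM in N-cre;Fox1 mice, and the 8 neuron markers to 10000 to 10500 and 9390 to 10400 CPM. Of the 9 oligodendrocyte markers 1, Mobp, was higher with no overlap. Its log2 fold change was 0.17, with an unadjusted p of 0.0171 and an adjusted p of 0.769 by edgeR. The 5 choroid plexus markers summed to 26 to 34.7 CPM, except for 2220 in N-cre replicate 3 and 4990 in N-cre;Fox1 replicate 2. No marker was at 0 in all mice. The part of cell composition in the differences of the 6 genes was not tested.

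Isoforms were read next, as Rbfox1 is a splicing factor that binds the letters TGCATG in RNA. Of the 28 isoforms, 19 passed the filter on low counts, which were all 4 of Hmgcs1, 3 of 4 of Fdft1, 2 of 4 of Sqle, 7 of 13 of Dhcr7, both of Insig1 and the single isoform of Srebf2. Of the 19, 0 had an adjusted p under 0.05 by edgeR, DESeq2 or limma-voom. Over the whole table, edgeR called 0% of 50556 isoforms tested, limma-voom called 0 isoforms and DESeq2 called 215. An unadjusted p under 0.05 with a higher level was found for Insig1-201 and Srebf2-201, 2 of the 19, against 2.62% of all isoforms. These 2 were also the ones that were higher with no overlap, against 5.85% of all isoforms, and 1, Sqle-204, was lower with no overlap, against 5.68%.

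Hmgcs1-201 and Hmgcs1-202 held nearly all of their gene's counts, share 3227 bases and encode the same 1560-nt coding sequence. Hmgcs1-201 took 76.9, 77.0 and 76.8% of the gene's counts in controls and 75.9, 75.2 and 73.6% in N-cre;Fox1 mice. Hmgcs1-202, with 1 exon more, took 22.8, 22.6 and 22.8% in controls and 23.5, 24.5 and 26% in N-cre;Fox1 mice. The shares of the genotypes did not overlap for either isoform. Since 3227 of the 3245 bases of Hmgcs1-201 occur in Hmgcs1-202, these shares rest largely on how RSEM divided the reads that fit both. The mean share of Hmgcs1-202 was 22.7 ± 0.125% in the controls and 24.7 ± 1.26% in the transgenic mice (SD, n = 3 each), a difference of 1.96 percentage points with p = 0.1 in a two-sided exact permutation test, which is the smallest p that 3 against 3 mice allow. In CPM, Hmgcs1-201 had a log2 fold change of 0.07 and Hmgcs1-202 of 0.23, with an adjusted p of 0.99 for both by edgeR. The short coding isoform Hmgcs1-203, at 0.148 to 0.409 CPM, and the retained intron Hmgcs1-204, at 0.413 to 0.670 CPM, overlapped between the genotypes.

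Fdft1-201 lies wholly within Fdft1-204, and both encode the same 1248-nt coding sequence. Fdft1-201 took 74.6, 74.0 and 74.8% of the gene's counts in controls and 78.6, 76.1 and 78.4% in N-cre;Fox1 mice, with no overlap. Fdft1-204 took 24.7, 24.6 and 24.4% in controls and 21, 23.4 and 21.4% in N-cre;Fox1 mice, the reverse order. The differences were 3.23 and -2.67 percentage points, each with p = 0.1 in the exact permutation test. Since all bases of Fdft1-201 occur in Fdft1-204, these shares rest on how RSEM divided the reads that fit both. In CPM, Fdft1-201 had a log2 fold change of 0.10 (SE 0.053) and Fdft1-204 of -0.13 (SE 0.0906), and both overlapped between the genotypes. Fdft1-202, a target of nonsense-mediated decay by its annotation, was at 0.118 to 0.985 CPM and overlapped as well.

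Sqle-201 took 95.8 to 96.9% of the counts of Sqle in controls and 97.3 to 97.8% in N-cre;Fox1 mice, with no overlap, a difference of 0.974 percentage points. With counts divided by isoform length the genotypes overlapped, and the difference was 0.567 points with p = 0.2 in the exact permutation test. The rest was mostly Sqle-204, an isoform annotated as retained intron, which was at 1.49, 1.61 and 2.05 CPM in controls and 1.27, 1.46 and 1.23 CPM in N-cre;Fox1 mice. All N-cre;Fox1 mice were below all N-cre mice, by a log2 fold change of -0.38 (SE 0.197, unadjusted p 0.102 and adjusted p 0.99 by edgeR). Sqle-202 was listed at 0 in all mice.

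Insig1-201, the coding isoform, took 96.9 to 97.8% of the counts in controls and 97.9 to 98.0% in N-cre;Fox1 mice, with no overlap and a difference of 0.596 percentage points, or 1.88 points with counts divided by isoform length. It was at 49.2, 46.6 and 45.6 CPM in controls and 50.9, 59.5 and 56.7 CPM in N-cre;Fox1 mice, a log2 fold change of 0.24 (SE 0.067, unadjusted p 0.0104 and adjusted p 0.945 by edgeR). Insig1-202, a retained intron, was at 1.14 to 1.48 and 1.10 to 1.23 CPM. Srebf2-201 is the only isoform of Srebf2 in the table, and in the isoform fit it had a log2 fold change of 0.08 (unadjusted p 0.0423 and adjusted p 0.99 by edgeR).

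Dhcr7 divided its counts among more isoforms. Dhcr7-202, with a 1413-nt coding sequence, took 71.1, 78.1 and 73.2% in controls and 69.0, 79.7 and 82.7% in N-cre;Fox1 mice. Dhcr7-211 took 19.4, 13.3 and 18.4% and 20.5, 10.4 and 11.1%. Both overlapped between the genotypes and varied more within a genotype than between them, with p = 0.6 and p = 0.4 in the exact permutation test. The 5 other tested isoforms of Dhcr7, namely Dhcr7-201, Dhcr7-205, Dhcr7-207, Dhcr7-210 and Dhcr7-212, were at 0 to 2.81 CPM in single mice, with standard errors of 0.382 to 1.17 on the log2 scale. In all, 8 shares of at least 5% were tested, and 6 of them had no overlap, or 5 with counts divided by isoform length. Of all such shares in the genes tested 10.7% had no overlap, and 12% in genes with at least 1000 expected counts in every mouse. The 6 shares had the smallest p possible, and after Benjamini-Hochberg adjustment over the 8 these had 0.133 in the exact permutation test. Shares of 2 isoforms of one gene are not independent.

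**Figure D4:**
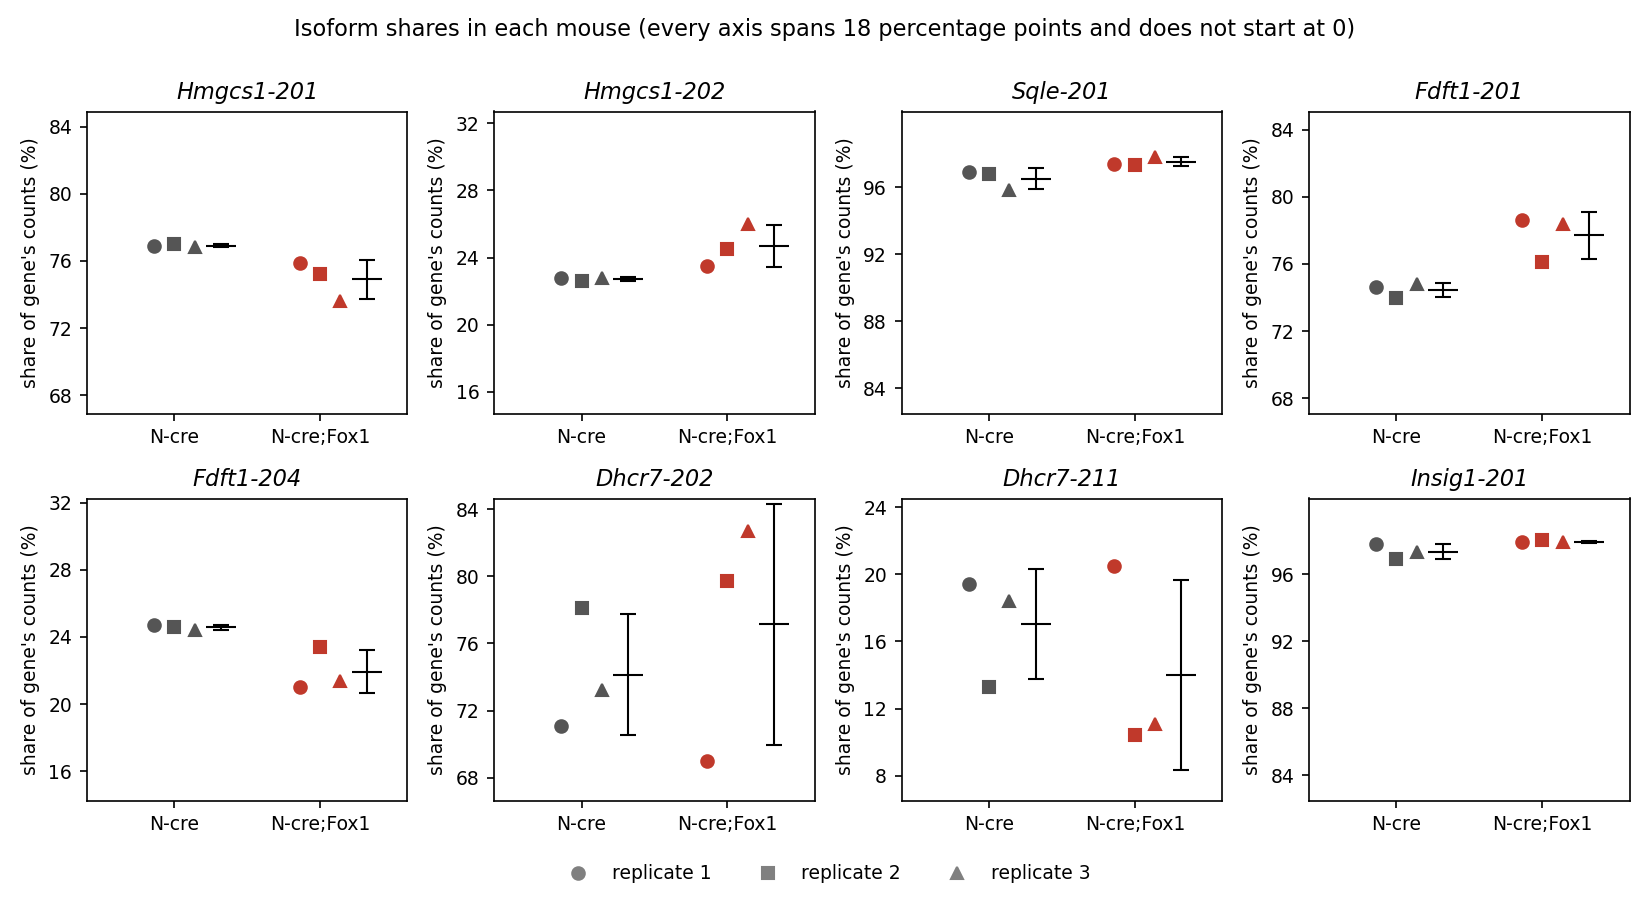
Share of its gene's expected counts (y axis, in percent, on axes of equal span that do not start at 0) taken by each of 8 isoforms in 3 mice of each genotype, with a marker shape for each replicate number and a bar with whiskers for the mean ± SD. The genotypes do not overlap for the isoforms of Hmgcs1, Sqle, Fdft1 and Insig1, by 0.596 to 3.23 percentage points on average, and overlap for those of Dhcr7.

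TGCATG was found 2 times in Hmgcs1-201 (3245 nt), 2 times in Srebf2-201 (5077 nt) and 1 time in Dhcr7-202 (2556 nt), and 0 times in Sqle-201, Fdft1-201 and Insig1-201. Over the main isoforms of 13736 genes with at least 600 expected counts in total, 55.7% held at least 1 match and the median was 0.203 matches per kb. The genes with a match were thus Hmgcs1, Srebf2 and Dhcr7, with log2 fold changes of 0.11, 0.09 and 0.06, and those with none were Insig1, Sqle and Fdft1, with 0.23, 0.13 and 0.04. The match is one of letters in the spliced RNA and does not cover introns, where splicing factors also bind.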

How the data were processed

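RNA-seq libraries of hippocampus from 6 mice (TruSeq Stranded Total RNA) were analysed from the isoform table. The authors trimmed reads with Cutadapt 1.18, aligned them with STAR 2.5.2b to mm10 with GENCODE M16 and estimated isoform abundance with RSEM 1.3.0; they deposited the expected counts without normalization. The strand setting of that counting is not given in the sources used here. No columns of the authors' own comparisons were used.

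Expected counts were summed by gene symbol, rounded, filtered with filterByExpr (at least 10 counts, 15 in total), normalized by TMM and tested for genotype with edgeR 4.0.16 (robust quasi-likelihood, R 4.3.3), with Benjamini-Hochberg adjustment over all genes or isoforms tested and a threshold of 0.05. Log2 CPM profiles used an offset of 0.01. Shares of isoforms with at least 5% of their gene were compared by exact permutation tests. Counts divided by isoform length were an alternative for the shares. Alternatives were DESeq2 1.42.0, limma-voom (limma 3.58.1), other scaling and filters, unrounded counts, a replicate block, a term for Xist and each mouse left out; subsets by Xist and Ttr (above 1000 CPM for Ttr and 1000 counts for Xist left out) were added after seeing the data. The code was tested on simulated data.

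Positions, lengths and overlaps came from GENCODE M21 on mm10, in which 133445 of 133944 isoforms were matched by identifier, 130826 with the same version. Near-identical copies were searched with blastn 2.17.0 (at least 95% identity over 200 bases). The genes, lists and tests were chosen with earlier results of these data known, and the promoter motifs after the sequences were seen. All 6 genes are named, with every tested isoform, pathway genes at either end of each list or with an unadjusted p under 0.05, and the 3 genes with the most alike profile. With 3 mice a genotype, edgeR's p-values set the genotype difference against the spread between these mice, which is estimated in part from other genes. Some genes of the pathway lists are not reported here and are left out of the lists' counts and medians.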

Additional observations from a re-analysis of the deposited data

How the results depend on the processing

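Over 17 alternatives the log2 fold change ran from 0.04 to 0.20 for Hmgcs1, 0.08 to 0.24 for Sqle, 0.04 to 0.08 for Dhcr7 and 0.07 to 0.11 for Srebf2, and none of these had an adjusted p under 0.05. For Insig1 it ran from 0.17 to 0.33, from 0.18 to 0.30 with 1 mouse left out, and passed the threshold without N-cre;Fox1 replicate 1 and in the mice with low Xist (0.33). For Fdft1 it ran from -0.02, in the mice with low Ttr, to 0.11. The count of the 6 genes with an adjusted p under 0.05 was 0, and 0 to 1 with 1 mouse left out and 1 in the mice with low Xist. Of the other cholesterol genes described 0 passed, and 3 in the mice with low Xist. Member isoforms with an adjusted p under 0.05 numbered 0 under all of them. Isoforms of low count changed direction: with 1 mouse left out Dhcr7-201 ran from -0.81 to 0.26, Dhcr7-207 from -0.36 to 1.203, Dhcr7-212 from -0.16 to 0.62, Hmgcs1-203 from -0.064 to 0.46 and Hmgcs1-204 from -0.022 to 0.32. In the mice with low Xist Dhcr7-207 had -0.51 and Hmgcs1-204 -0.091, and in those with low Ttr Dhcr7-212 had -0.11 and Hmgcs1-203 -0.008. Hmgcs1-201, the main isoform of its gene and not of low count (158 to 185 CPM), had -0.009 in the mice with low Ttr, against 0.07 in all mice. The cause was not tested. Deviations of same-numbered mice from their group means correlated at 0.397, -0.312 and -0.473. The highest value, 0.656, was that of N-cre replicate 3 and N-cre;Fox1 replicate 2, the libraries with high Ttr. Deviations in a group of 3 sum to 0 for each gene, so these values cannot decide whether replicate numbers pair the mice. With a replicate block 0 of the 6 genes had an adjusted p under 0.05, and Insig1 had a log2 fold change of 0.23. Subsets by Xist and Ttr were chosen after seeing the data and hold 2 mice a genotype. Whether depth or spread between mice limits a gene was not tested.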
